A study of Homo sapiens with 10 samples.

Results

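The genes described here are the D-type cyclins CCND1, CCND2 and CCND3, the kinases CDK4 and CDK6 that they bind, the inhibitors CDKN2A, CDKN2B, CDKN1B and CDKN1C, and the substrate RB1. These 10 genes, of 58302 in each gene table, were chosen by name for their place in the pathway, with earlier results of these data known. They were read by RNA-Seq in 10 libraries of 3 human lines labelled as hepatocellular carcinoma, with 1 library per condition. In SK-hep1 cells (SK-Hep1 in the labels) the libraries were a mock control and cells overexpressing PSPC1, PSPC1 with PTK6, the PSPC1-Y523F mutant, or PSPC1-Y523F with PTK6. In Mahlavu cells they were a mock control and the libraries labelled as overexpressing PSPC1-CT131, a C-terminal piece of PSPC1, or Mut-NLS-CT131, which the labels describe as mutated in its nuclear localization signal. In Huh-7 cells they were untreated control cells and cells given 10 ng/ml of HGF, the ligand of the MET receptor, for 48 h. PSPC1 is a paraspeckle protein, PTK6 is a tyrosine kinase, and the question put to the libraries was how gene expression differs from mock when PSPC1 forms are overexpressed, or from untreated cells after HGF. The sources used here do not state whether the sequenced cells were single clones or mixed cultures.

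D-type cyclins are made in response to growth signals, and each binds CDK4 or CDK6 to form a kinase that phosphorylates the retinoblastoma protein, the product of RB1. Phosphorylated RB1 lets go of the E2F transcription factors, which then drive genes of DNA replication. The INK4 proteins, encoded here by CDKN2A (p16) and CDKN2B (p15), bind CDK4 and CDK6 directly and keep the cyclin off, while the CIP/KIP proteins p27 (CDKN1B) and p57 (CDKN1C) bind cyclin and kinase together. The axis is often altered in liver cancer, where CCND1 can be amplified and the locus of CDKN2A and CDKN2B deleted or silenced.

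The 8 SK-hep1 and Mahlavu libraries held 19085682 to 24278662 reads on genes, and the reads recovered from the Huh-7 values came to 16374128 in untreated and 15245935 in HGF-treated cells. Levels below are FPKM as deposited (reads per kilobase of an effective gene length and per 1000000 reads on genes). The effective length is the one that counts and FPKM imply, and it differs from the listed length. It is 792 against 1283 bases for CDKN2A and 1946 against 3911 for CDKN2B. Shares and ratios between genes below rest on it. Lists of SK-hep1 levels run through mock, wild-type PSPC1, wild-type PSPC1 with PTK6, the Y523F mutant and the mutant with PTK6, and lists of Mahlavu levels through mock, PSPC1-CT131 and Mut-NLS-CT131. Huh-7 levels come from a separately deposited table, so levels set across lines are descriptions. In bulk RNA, fewer cells that express a gene and less of its RNA in each cell cannot be told apart. Of the 100 values of the 10 genes, 80 rested on at least 40 reads, and their 95% Wilson intervals reached at most 33.4% above and 25.02% below the value. Such intervals cover counting error only and say nothing of the spread between cultures. The constructs showed unevenly. PSPC1 was at 0 reads in SK-hep1 mock and at 7.01, 26.4, 2.28 and 70.9 FPKM in the 4 construct libraries in that order, and PTK6 was at 4.79 FPKM in mock against 16.7 and 10.5 FPKM in both libraries with PTK6. PSPC1 was not raised in the Mahlavu libraries labelled PSPC1-CT131 (30.8 FPKM) and Mut-NLS-CT131 (22.5 FPKM) against mock (47.3 FPKM), so their directions are those of the libraries so labelled. Of 10 hepatocyte markers, 10 reached 1 FPKM in Huh-7 and 1 in SK-hep1 and in Mahlavu, where ALB, TTR, FGB and TF had no read. Their summed level was 16.3 to 42.5 FPKM in SK-hep1, 8.19 to 10.4 in Mahlavu and 30231 to 30565 in Huh-7. Of 8 endothelial markers 0 reached 1 FPKM in SK-hep1 or Mahlavu and 2 in Huh-7, and of 8 mesenchymal markers 8, 7 and 6 did in SK-hep1, Mahlavu and Huh-7.

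CCND1, the D-type cyclin most often tied to liver cancer, was highest in SK-hep1. It stood at 392 FPKM in mock, 180 with PSPC1 alone, 166 with PSPC1/PTK6, 389 with PSPC1-Y523F alone and 356 with PSPC1-Y523F/PTK6. In Mahlavu it was at 52.9 in mock, 61.3 in PSPC1-CT131 and 28.0 in Mut-NLS-CT131, and in Huh-7 at 147 untreated and 133 with HGF. The 3 lines did not overlap, with every SK-hep1 library above both Huh-7 libraries and both of these above every Mahlavu library. Within SK-hep1 the libraries with wild-type PSPC1 were the low ones, and those with PSPC1-Y523F lay with mock.

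CCND3, the D-type cyclin best known from lymphoid cells, took another order. Its level was 288 FPKM in SK-hep1 mock, 511 with PSPC1 alone, 200 with PSPC1/PTK6, 535 with PSPC1-Y523F alone and 278 with PSPC1-Y523F/PTK6. In Mahlavu it was 149 in mock, 256 in PSPC1-CT131 and 242 in Mut-NLS-CT131, so SK-hep1 and Mahlavu overlapped. In Huh-7 it was only 5.24 untreated and 5.996 with HGF, and the Mahlavu median was 43.1 times the Huh-7 median. In SK-hep1 the libraries with a PSPC1 form and no PTK6 were the high ones. CCND2, the third D-type cyclin, had 0 to 16 reads in a library, with the 16 reads in SK-hep1 PSPC1 (0.400 FPKM, 95% interval 0.246 to 0.650), and it passed neither the filter on FPKM nor the one of the test between lines. In the 4 libraries with no CCND2 read, 3 reads would have given 0.0625 to 0.0927 FPKM.

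The make-up of the D-type cyclin transcripts therefore differed by line. CCND1 gave 95.7% to 96.6% of the summed D-type cyclin FPKM in Huh-7 and 10.4% to 26.2% in Mahlavu, where CCND3 gave the rest. In SK-hep1 CCND1 gave 57.7% in mock, 26.0% with PSPC1 alone, 45.3% with PSPC1/PTK6, 42.1% with PSPC1-Y523F alone and 56.2% with PSPC1-Y523F/PTK6. The sum itself ran from 139 FPKM in Huh-7 with HGF to 924 FPKM in SK-hep1 PSPC1-Y523F. SK-hep1 mock (679 FPKM) and PSPC1 (691 FPKM) had nearly the same sum while their main cyclin differed.

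**Figure D1:**
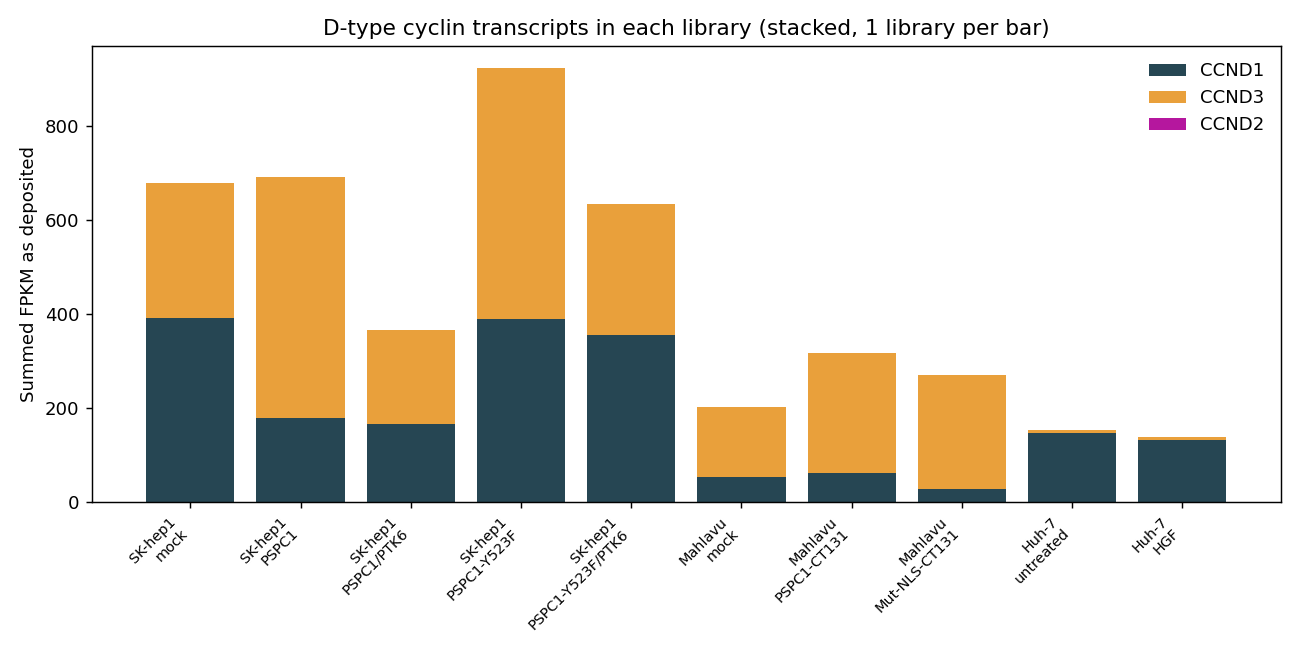
Stacked bars of CCND1, CCND2 and CCND3 in each library, in FPKM as deposited, 1 library per bar. Huh-7 bars are nearly all CCND1, Mahlavu bars mostly CCND3, and the SK-hep1 PSPC1 and mock bars are alike in height with CCND1 at 26.0% and 57.7%.

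CCND3 has several start sites, which a gene-level count adds together. The 250 bases before the first and the second RefSeq start are shown (GRCh38.p14, minus strand, chr6:42048689-42048938 and chr6:41941809-41942058). Both windows lie inside the gene as the files place it, chr6:41934933-42050357. They were chosen because this gene had the widest range between lines of those expressed in all of them. Capitals mark GGGCGG, the GC box bound by SP1, on either strand.
CCND3 start 1: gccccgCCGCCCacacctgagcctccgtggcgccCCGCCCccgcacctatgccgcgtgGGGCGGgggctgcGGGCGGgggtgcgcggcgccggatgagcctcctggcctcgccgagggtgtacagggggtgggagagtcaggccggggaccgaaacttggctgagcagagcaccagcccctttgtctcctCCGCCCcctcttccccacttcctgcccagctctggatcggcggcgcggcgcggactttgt
CCND3 start 2: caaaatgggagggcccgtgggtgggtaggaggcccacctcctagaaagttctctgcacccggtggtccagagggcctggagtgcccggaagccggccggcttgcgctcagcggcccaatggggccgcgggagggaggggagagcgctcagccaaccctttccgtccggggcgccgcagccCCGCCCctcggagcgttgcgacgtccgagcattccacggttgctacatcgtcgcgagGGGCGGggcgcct
The first held 5 such matches and the second 2, in windows of 74.4% and 71.2% GC. The window of the third RefSeq start (chr6:41939206-41939455), not shown, held 0 and was 61.2% GC. Among all 35116 RefSeq windows of this length 42.6% held GGGCGG on either strand. RefSeq windows were matched for 7 of the 10 genes, 11 in all, of which 7 held GGGCGG and 0 held any of the E2F letters TTTCCCGC, TTTGGCGC, TTTCGCGC or TTTGCCGC on either strand, against 2.79% of all windows. The RB1 window (chr13:48476200-48476449) lies inside the gene, near its end, and without it the counts were 7 and 0 of 10. A match or its absence describes these letters in these windows and no binding. CCND1, CCND2 and CDKN1C were not matched.

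The kinases varied less. CDK4 was at 279, 190, 168, 221 and 235 FPKM in SK-hep1, at 211, 225 and 173 in Mahlavu mock, PSPC1-CT131 and Mut-NLS-CT131, and at 163 and 143 in Huh-7 untreated and with HGF. The SK-hep1 and Mahlavu levels of CDK4 overlapped, and both Huh-7 libraries lay below every Mahlavu library. CDK6, its close relative, was at 12.7, 6.10, 9.65, 6.81 and 11.1 FPKM in SK-hep1, at 18.9, 10.5 and 12.8 in Mahlavu and at 22.2 and 20.5 in Huh-7, and again SK-hep1 and Mahlavu overlapped. Huh-7 was thus the low line for CDK4 and the high one for CDK6, and CDK4 exceeded CDK6 in every library, by 6.95 to 7.36 times in Huh-7, 11.1 to 21.3 times in Mahlavu and 17.5 to 32.4 times in SK-hep1.

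The INK4 inhibitors showed the sharpest split. CDKN2A was at 330 FPKM (5938 reads) in Mahlavu mock, 445 (6975 reads) in PSPC1-CT131 and 351 (5299 reads) in Mut-NLS-CT131, and at 119 and 113 FPKM in Huh-7 untreated and with HGF. In SK-hep1 it had 1 read in mock and none in the other libraries, where 3 reads would have given 0.156 to 0.187 FPKM. CDKN2B was at 29.2, 23.3 and 44.3 FPKM in Mahlavu and at 9.16 and 7.52 in Huh-7, and had no read in the 5 SK-hep1 libraries. For CDKN2A the share of all reads in the 3 Mahlavu libraries together (18212 reads) was 32873 times that of the 5 SK-hep1 libraries together (1 read), with an exact 95% counting interval of 5899 to 1.3e+06. For CDKN2B the lowest Mahlavu library was at least 305-fold and the lowest Huh-7 library at least 98.6-fold higher than 3 reads in the SK-hep1 library with the highest such floor. Where both were expressed CDKN2A exceeded CDKN2B 7.91 to 19.1 times.

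The transcripts of p16 and of p14ARF, an activator of p53, begin at different starts of CDKN2A and share downstream exons, so the gene-level value does not separate them. The windows of both starts and of CDKN2B (GRCh38.p14, minus strand, chr9:21995325-21995574, chr9:21974858-21975107 and chr9:22009306-22009555) are shown because 3 separate starts lie within the stretch that had almost no reads in SK-hep1. Capitals mark GGGCGG on either strand.
CDKN2A start 1: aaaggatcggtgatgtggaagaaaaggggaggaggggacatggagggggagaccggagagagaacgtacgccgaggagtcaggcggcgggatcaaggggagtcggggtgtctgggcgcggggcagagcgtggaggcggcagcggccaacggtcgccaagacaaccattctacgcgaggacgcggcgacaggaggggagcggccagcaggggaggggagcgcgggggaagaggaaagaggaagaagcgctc
CDKN2A start 2: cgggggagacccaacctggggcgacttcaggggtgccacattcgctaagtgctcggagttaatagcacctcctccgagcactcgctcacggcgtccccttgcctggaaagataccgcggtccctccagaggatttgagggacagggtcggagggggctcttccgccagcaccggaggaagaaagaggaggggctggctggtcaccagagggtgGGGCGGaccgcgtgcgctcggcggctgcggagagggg
CDKN2B: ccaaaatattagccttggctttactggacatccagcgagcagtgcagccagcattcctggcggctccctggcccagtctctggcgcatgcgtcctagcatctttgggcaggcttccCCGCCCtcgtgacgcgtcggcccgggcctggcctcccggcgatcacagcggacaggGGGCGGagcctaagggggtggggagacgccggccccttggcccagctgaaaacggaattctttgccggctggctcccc
They held 0, 1 and 2 matches and were 66.8%, 66.8% and 66.4% GC, against a median of 58% over all windows. CDKN2A (chr9:21967753-21995301 in the files) also overlaps CDKN2B-AS1 on the other strand. The library kit named in the labels does not mark strand, so reads in the overlap cannot be told apart, though CDKN2B-AS1 stood at only 0.613 to 0.893 FPKM in Mahlavu and 1.02 to 1.90 in Huh-7.

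The neighbours of both genes on chromosome 9 were as empty in SK-hep1. MTAP, which makes an enzyme of methionine salvage, was at 15.7, 9.12 and 18.0 FPKM in Mahlavu, 19.9 and 17.6 in Huh-7 and 0 reads in every SK-hep1 library. DMRTA1 and CDKN2B-AS1 likewise had 0 reads in SK-hep1. MIR31HG also had 0 reads there, but it was at 0 FPKM in Huh-7 too and had 35 reads in Mahlavu. The nearest genes with reads in all 5 SK-hep1 libraries were KLHL9 on one side, ending at base 21335380, and TUSC1 on the other, starting at base 25676389 (positions as in the files). Of the 49 listed genes between them, 20 had reads in Mahlavu, 25299 reads in all, while 3 had reads in SK-hep1, 1 read each. Most of the Mahlavu reads were of CDKN2A (18212), CDKN2B (3831), MTAP (1647) and DMRTA1 (1401). Between DMRTA1 and TUSC1 Mahlavu was nearly empty too, with 8 reads of LINC01239 and 1 of ELAVL2. KLHL9 itself stood at 2.04 to 4.34 FPKM and TUSC1 at 22.1 to 35.3 in SK-hep1, against 3.51 to 5.81 and 15.9 to 34.5 in Mahlavu. RNA alone does not separate a lost locus from a silent one, and DNA was not analysed here.

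Of the KIP inhibitors, CDKN1B was at 38.2, 47.6, 56.7, 34.1 and 24.1 FPKM in SK-hep1. It was at 40.8, 26.8 and 45.03 in Mahlavu mock, PSPC1-CT131 and Mut-NLS-CT131, and at 103 and 117 in Huh-7 untreated and with HGF, above every other library. CDKN1C was at 8.11, 12.5, 18.97, 2.06 and 6.56 FPKM in SK-hep1 in the same order, at 7.02, 7.51 and 9.62 in Mahlavu, and at 2.41 and 1.99 in Huh-7. In SK-hep1 both genes were highest in PSPC1/PTK6. The SK-hep1 range of CDKN1C, 9.21 times from lowest to highest, was the widest within a line among the genes with reads in every library, and its low end rested on 66 reads (95% interval 1.62 to 2.62 FPKM). CDKN1A, the third KIP gene (p21) and a target of p53, stood at 309 to 493 FPKM in SK-hep1 against 4.81 to 10.3 in Mahlavu and 5.53 to 8.66 in Huh-7.

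RB1, the substrate, was at 24.2, 15.5, 23.3, 14.8 and 17.1 FPKM in SK-hep1, at 65.3, 35.4 and 65.2 in Mahlavu and at 39.4 and 40.6 in Huh-7. Every SK-hep1 library was below both Huh-7 libraries, and the Mahlavu library labelled PSPC1-CT131 lay below Huh-7 while the other two lay above it.

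The difference between lines could be tested for SK-hep1 against Mahlavu, 5 libraries against 3, by edgeR's quasi-likelihood test with Benjamini-Hochberg adjustment over 15229 genes. The libraries of a line carry different constructs and are not replicate cultures of a condition, so the spread holds construct differences too, and the result describes these libraries of these lines. At an adjusted p under 0.05, 51.7% of all genes tested differed, and 5 of the 9 members tested did, which is near that background. CDKN2A and CDKN2B are among the 5 and passed the filter through the Mahlavu libraries alone, so their calls add nothing to the read ratio and the bound given above. Of the 7 tested members with more than 3 reads in some SK-hep1 library 3 were called. CCND1 was 7.63-fold higher in SK-hep1 (log2 difference 2.93, SE 0.43, edgeR adjusted p = 0.000234), and RB1 was lower by 1.26 on the log2 scale (log2 difference -1.26, SE 0.22, edgeR adjusted p = 0.000748). CCND3 was 2.02-fold higher in SK-hep1 (log2 difference 1.02, SE 0.38, edgeR adjusted p = 0.044), and this call was lost without the SK-hep1 PSPC1 library (adjusted p = 0.0903), without SK-hep1 PSPC1-Y523F (adjusted p = 0.088), without Mahlavu mock (adjusted p = 0.165), without Mut-NLS-CT131 (adjusted p = 0.0855) and by limma (adjusted p = 0.112). The remaining differences missed the threshold, with log2 values of 0.39 for CDK4 (SE 0.23), -0.30 for CDK6 (SE 0.27), 0.37 for CDKN1B (SE 0.25) and 0.49 for CDKN1C (SE 0.50). CCND2 did not pass the filter on low counts. With every gene of at least 1 read kept it was called higher in SK-hep1 (edgeR adjusted p = 0.016), on 27 reads against 1, of which 16 came from the PSPC1 library. The Huh-7 libraries have no deposited counts and stayed outside the test.

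Conditions were compared as differences between 2 libraries, on log2 of quantile-normalized FPKM + 1, with a change called at 2-fold. With 1 library per condition these differences carry no test. The 4 comparisons with SK-hep1 mock share that library, as do both with Mahlavu mock, and are given side by side. In SK-hep1, 7 of the 10 genes passed the filter of a mean of at least 1 FPKM (CCND2, CDKN2A and CDKN2B did not), and 9 passed in Mahlavu and Huh-7. Another scaling moved the median of all genes by more than 0.1 in several comparisons, the furthest to -0.30 (FPKM scaled to a common sum, PSPC1-Y523F/PTK6 against PSPC1/PTK6), and the quantile-normalized values given here have medians from -0.04 to 0.01.

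In SK-hep1 with wild-type PSPC1, CCND1 was the member past 2-fold. It was lower than in mock by 1.03 on the log2 scale in PSPC1 (log2 difference -1.03, read ratio 0.460, 95% counting interval 0.444 to 0.476) and by 1.16 in PSPC1/PTK6 (log2 difference -1.16, ratio 0.423, interval 0.408 to 0.438). These were 1 of 7 members in each comparison, where 5.48% and 8.47% of all genes passed 2-fold. CDK4 and CDK6 lay on the same side without passing, at -0.50 and -0.84 in PSPC1 and at -0.67 and -0.59 in PSPC1/PTK6. The KIP genes lay on the other side, CDKN1B at 0.32 and 0.47 and CDKN1C at 0.59 and 0.87. CDKN1C in PSPC1/PTK6 passed 2-fold on FPKM as deposited, at 1.13.

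With PSPC1-Y523F, the form with tyrosine replaced by phenylalanine, CCND1 was at -0.02 against mock and -0.12 with PTK6. The member past 2-fold was CDKN1C, at -1.46 in PSPC1-Y523F (ratio 0.254, 95% counting interval 0.191 to 0.334), 1 of 7 members where 5.04% of all genes passed. It was at -0.13 in PSPC1-Y523F/PTK6, in which 0 of 7 members passed against 4.84% of all genes, and all 7 were below 0, from -0.53 for CDKN1B to -0.05 for CDK6. CDK6 and CCND3 (-0.09) there turned positive under another scaling, up to 0.04 and 0.09.

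The mutant set directly against wild-type PSPC1 gave the most calls, 2 of 7 members without PTK6 (4.03% of all genes) and 2 of 7 with PTK6 (6.97%). CCND1 was higher with the mutant in both, at 1.01 without PTK6 (ratio 2.16, 95% counting interval 2.09 to 2.24) and 1.03 with it (ratio 2.15, interval 2.08 to 2.22). CDKN1C was lower in both, at -2.05 (ratio 0.165, interval 0.125 to 0.214) and -1.004 (ratio 0.346, interval 0.298 to 0.401). CDKN1B lay on the same side as CDKN1C, at -0.45 and -0.99, and the latter passed 2-fold under 4 of 9 alternatives. Both comparisons use separate libraries, yet each rests on 1 library a side, so the difference between cultures was not measured. PSPC1 level differed as well, at 2.28 FPKM with the mutant against 7.01 with wild type, and at 70.9 against 26.4 with PTK6. The mutation and the PSPC1 level cannot be told apart here.

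PSPC1 itself stood higher in the libraries with PTK6, at 26.4 against 7.01 FPKM (wild type) and 70.9 against 2.28 FPKM (mutant). Differences with PTK6 and with PSPC1 level cannot be told apart here. CCND3 was lower in the libraries with PTK6. Against the same PSPC1 form without PTK6 it was at -1.26 for wild-type PSPC1 (ratio 0.391, 95% counting interval 0.379 to 0.405), 1 of 7 members where 4.93% of all genes passed, and at -0.93 for PSPC1-Y523F (ratio 0.519, interval 0.504 to 0.535), which did not pass. CCND1 differed little, by -0.13 and -0.11. With PSPC1-Y523F the member past 2-fold was CDKN1C, at 1.33 (ratio 3.18, interval 2.42 to 4.25), 1 of 7 where 5.75% of all genes passed. With wild-type PSPC1 it was at 0.29. Whether these differences differ from each other was not tested.

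The 4 SK-hep1 construct libraries cross the PSPC1 form with PTK6, so an additive fit with 1 residual degree of freedom could be made over them by edgeR's quasi-likelihood test, chosen after seeing the data. It assumes that both effects add, and cultures were still not replicated. PSPC1 level differed among the 4 libraries and was not in the fit, so neither effect can be told apart from it. For the mutant against wild-type PSPC1, 0 of 7 members and 0% of all 14023 genes passed an adjusted p of 0.05. At an unadjusted p under 0.05 there were 3 members, CCND1 (log2 1.29, SE 0.28, edgeR adjusted p = 0.203), CDKN1C (log2 -1.84, SE 0.37, edgeR adjusted p = 0.203) and CDKN1B (log2 -0.67, SE 0.22, edgeR adjusted p = 0.248), and 2217 genes in all. For PTK6, 0 of 7 members and 0.342% of all genes passed. At an unadjusted p under 0.05 there were 3 members, and 1677 genes in all. These members were CCND3 (log2 -1.22, SE 0.33, edgeR adjusted p = 0.231), CDK6 (log2 0.61, SE 0.21, edgeR adjusted p = 0.337) and CDKN1C (log2 1.02, SE 0.36, edgeR adjusted p = 0.347). With upper-quartile factors in place of TMM the mutant effect passed for CCND1 (edgeR adjusted p = 0.0277) and CDKN1C (edgeR adjusted p = 0.003), 2 of 7, and the PTK6 effect for CCND3 (edgeR adjusted p = 0.0407), 1 of 7. Of all 14023 genes, 470 passed for the mutant and 510 for PTK6 with these factors. By limma 0 of 7 passed for either, the adjusted p of these genes being 0.0742, 0.0645 and 0.0551. Of 12443 genes, 13 passed for the mutant and 178 for PTK6 by limma.

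In Mahlavu, 1 of 27 values passed 2-fold. It was CCND1, higher in PSPC1-CT131 than in Mut-NLS-CT131 by 1.26 (ratio 2.19, 95% counting interval 1.997 to 2.41), 1 of 9 members where 8.71% of all genes passed. Against mock it was at 0.36 in PSPC1-CT131 and -0.90 in Mut-NLS-CT131, and 0 of 9 members passed in either, against 6.2% and 6.32% of all genes. CCND3 was at 0.81 and 0.77 in the same libraries, CDKN2A at 0.33 and 0.06 and CDKN2B at -0.09 and 0.68. RB1 was at -0.76 in PSPC1-CT131 and 0.01 in Mut-NLS-CT131. Across genes the PSPC1-CT131 differences followed GC content (rho = 0.55 against mock and 0.57 against Mut-NLS-CT131, over genes, which are not independent replicates). RB1 has the lowest GC content of the members, 37.3%, and its value was -0.27 with GC and length taken out, while that of CCND1 between both constructs was 1.18.

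HGF in Huh-7 left every member under 2-fold, 0 of 9 where 0.834% of all genes passed. The values ran from -0.26 for CDKN2B to 0.21 for CDKN1B, with CCND1 at -0.11 (ratio 0.903, 95% counting interval 0.855 to 0.953), CDK4 at -0.16, CDK6 at -0.09, CDKN2A at -0.06 and RB1 at 0.05. The interval of the ratio included 1 for CCND3 (0.852 to 1.54), CDK6 (0.847 to 1.01), CDKN2A (0.885 to 1.02), CDKN1C (0.548 to 1.23) and RB1 (0.942 to 1.13), so no difference was detectable for these genes at this depth.

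Downstream of RB1, 20 E2F target genes of DNA replication were followed as a list, and all 20 passed the filter. In PSPC1/PTK6 against mock all 20 lay below 0, with a median of -0.82 against -0.03 for all genes. Of the 20, 6 passed 2-fold, where 8.47% of all genes did. These were the helicase subunits MCM2 (-1.16) and MCM5 (-1.16) and MCM3, the loader CDC6 (-1.01), GINS2 (-1.35) and UHRF1 (-2.04). In PSPC1 the median was -0.46 and 1 of 20 genes passed, CDC6 at -1.06, near the 5.48% of all genes that passed. The medians were 0.05 in PSPC1-Y523F and -0.23 in PSPC1-Y523F/PTK6, with 0 genes past 2-fold in both, where 5.04% and 4.84% of all genes passed. CCND1 in the same comparisons, which share the mock library, was at -1.16 in PSPC1/PTK6, -1.03 in PSPC1, -0.02 in PSPC1-Y523F and -0.12 in PSPC1-Y523F/PTK6. In Mut-NLS-CT131, the Mahlavu library with the lowest CCND1, the median was -0.69 and 4 genes passed (MCM3, MCM4, CDC6 and UHRF1), against a median of -0.15 and 0 genes in PSPC1-CT131. For all genes the medians were 0.0007 and 0.01, and 6.32% and 6.2% passed. With HGF 19 of 20 lay below 0 with a median of -0.24 and 0 past 2-fold. All genes there had a median of -0.002, and 0.834% passed. Over 5 other scalings the PSPC1/PTK6 median ran from -0.93 to -0.75 with 5 to 9 genes past 2-fold, and that of Mut-NLS-CT131 from -0.69 to -0.53 with 2 to 4.

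Among 26 partners of the pathway 4 were lower and 1 higher past 2-fold in PSPC1/PTK6 against mock, where 8.47% of all genes passed, with a list median of -0.30. Over 5 other scalings 2 to 4 were lower, since E2F1 and E2F8 passed under 2 of them each. The lower ones were the E2F factors E2F1 (-1.003), E2F2 and E2F8 and the phosphatase CDC25A (-1.21), and the higher one was E2F5. In the other 3 comparisons with SK-hep1 mock (PSPC1, PSPC1-Y523F and PSPC1-Y523F/PTK6) 0 of 26 passed, where 5.48%, 5.04% and 4.84% of all genes did. CDKN2C (p18), an INK4 gene outside chromosome 9, was expressed in SK-hep1 at 48.1, 80.6, 35.5, 96.8 and 45.8 FPKM, and ranked the 5 libraries in the same order as CCND3 did. Its differences from mock were 0.76, -0.51, 0.96 and 0.01 in the construct libraries, and -1.27 on adding PTK6 to wild-type PSPC1. In Mahlavu against mock, 2 of 26 partners were higher and 1 lower past 2-fold in PSPC1-CT131, where 6.2% of all genes passed. In Mut-NLS-CT131 2 were higher and 2 lower, where 6.32% of all genes passed. The lower ones were CCNH (-1.06) in PSPC1-CT131 and CCNE2 and SKP2 in Mut-NLS-CT131. The higher ones in both were CDKN2D (p19), at 1.32 and 1.37, and CDKN1A, at 1.37 and 1.08. Among these higher values, CDKN2D in Mut-NLS-CT131 was past 2-fold under all 5 other scalings. The rest of them fell short on FPKM as deposited or scaled to a common sum, at 0.92 to 0.98. CCNH in PSPC1-CT131 passed under 3 of 5. Between both constructs 3 of 26 partners passed, where 8.71% of all genes did, namely CCNH (-1.36), CDK7 (-1.06) and MNAT1 (-1.10), which together form the kinase that activates CDK4 and CDK6. With GC and length taken out none of these passed, at -0.62, -0.64 and -0.45.

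Of 14 upstream regulators of D-type cyclins, 13 passed the filter in SK-hep1, and their medians lay between -0.12 and 0.03 in all 8 comparisons. Against mock, 1, 2, 1 and 1 of the 13 passed 2-fold in the 4 construct libraries, all lower. Of all genes, 5.48%, 8.47%, 5.04% and 4.84% passed there. The growth-signal gene EGR1 was past 2-fold lower than in mock in PSPC1 (-1.96), PSPC1/PTK6 (-2.42) and PSPC1-Y523F (-1.07). In PSPC1-Y523F/PTK6 it was at -0.93, short of 2-fold, and passed under 3 of 5 other scalings. FOS, another such gene, passed 2-fold lower in both libraries with PTK6, under 2 of 5 other scalings with wild-type PSPC1 and 5 of 5 with the mutant. MYC was at 0.10, 0.65, -0.10 and -0.20 against mock in the 4 construct libraries, with 0 past 2-fold. On adding PTK6 to wild-type PSPC1, FOS was past 2-fold lower (-1.03), 1 of 13 where 4.93% of all genes passed. It passed there under 1 of 5 other scalings. In PSPC1-Y523F/PTK6 against PSPC1/PTK6, EGR1 (1.49) and TCF7L2 were past 2-fold higher, 2 of 13 where 6.97% of all genes passed. In Mahlavu JUN (1.08) and FOSL1 (1.24), which form the AP-1 factor, were past 2-fold higher in PSPC1-CT131 than in Mut-NLS-CT131. These were 2 of 14 tested, where 8.71% of all genes passed. JUN passed under 2 and FOSL1 under 4 of 5 other scalings, and neither did with GC and length taken out.

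**Figure D2:**
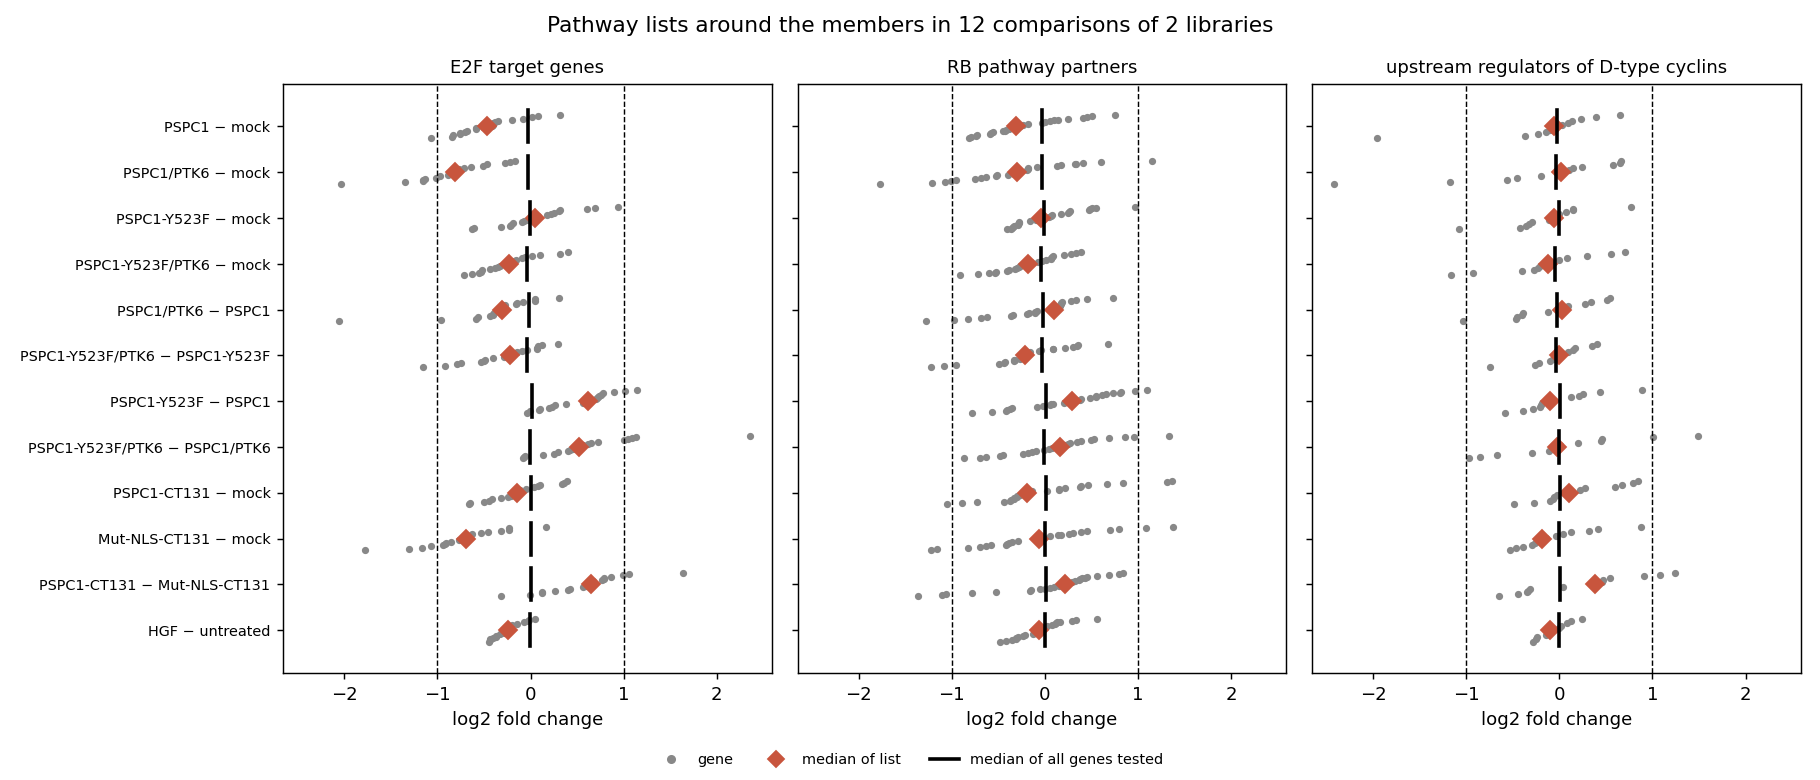
Log2 fold change of each gene of 3 lists in the 12 comparisons (grey points), with the list median (diamond) and the median of all genes tested (black bar), and dashed lines at 2-fold. The E2F target median stands at -0.82 in PSPC1/PTK6 and -0.69 in Mut-NLS-CT131 against mock, while that of the upstream regulators stays near 0 in SK-hep1.

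Near CDKN1C on chromosome 11, an imprinted region, PHLDA2 was at 183, 59.1, 99.7, 96.7 and 210.0 FPKM in SK-hep1, so its order was not that of CDKN1C. Of the listed neighbours there, 4 passed the filter in SK-hep1. In PSPC1-Y523F against mock (CDKN1C -1.46) all 4 lay below 0, with a median of -0.83 and 0 past 2-fold (5.04% of all genes). In PSPC1 against mock (CDKN1C 0.59) all 4 also lay below 0. On adding PTK6 to the mutant (CDKN1C 1.33) all 4 lay above 0, with a median of 0.89 and 2 past 2-fold (5.75%). In the mutant against wild-type PSPC1 (CDKN1C -2.05, and -1.004 with PTK6) the medians were -0.02 and 0.25. IGF2, from the same region, was at 379 and 396 FPKM in Huh-7 and at most 0.163 in the other lines, while CDKN1C was lowest in Huh-7 among the line medians.

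The genes whose centred log2(FPKM + 1) profile over the 10 libraries came closest to that of a member, out of 13857, are given as a description, by the root mean square difference. For RB1 the closest was NARS1 (0.07), for CDK4 CHTF8 (0.10), for CDK6 RANBP2 (0.14) and for CDKN1B CRLS1 (0.15). For CCND1 the closest with a name was IRS1 (0.38, second), for CCND3 RASA3 (0.40), for CDKN1C ROM1 (0.37), for CDKN2A ASS1 (0.40) and for CDKN2B HS3ST3A1 (0.30). The members' own spread was 0.28 for CDK4, 0.55 for CDK6, 0.73 for RB1, 1.22 for CCND1 and 3.97 for CDKN2A on the same scale, so the likeness of the kinases is over a narrow range.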

How the data were processed

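The 10 genes and the gene lists were chosen with earlier results of these data known. In the SK-hep1 and Mahlavu tables each gene has a read count and an FPKM, as deposited, and in the Huh-7 tables an FPKM alone. The submitters' processing notes name TopHat2 2.0, HTSeq 0.6.1, edgeR and GRCh38.p12, the paper's methods name hg18, and gene positions in the files match GRCh38 for 97.5% of genes shared with GENCODE. The labels describe poly-A selection, the paper's methods rRNA depletion.

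FPKM followed from count, total and 1 effective length per gene, so Huh-7 reads were recovered (100% within 0.02 reads of a whole number). Symbols came from Ensembl identifiers, 57532 of 58302 matched. FPKM were quantile normalized over the 8 SK-hep1 and Mahlavu libraries and over both Huh-7 libraries; log2 fold changes used a pseudocount of 1, a mean of at least 1 FPKM and a 2-fold threshold. Lines were compared with edgeR 4.0.16 in R 4.3.3 (TMM, filterByExpr, quasi-likelihood test, Benjamini-Hochberg). DESeq2 1.42.0, limma 3.58.1, other scalings, pseudocounts and filters were alternatives; PSPC1 form and PTK6 were also fitted together over 4 SK-hep1 libraries. The scripts were tested on simulated data. Ratios have exact and levels Wilson 95% intervals. The text names all 10 members, the closest of 3 genes nearest in profile to each member with a mean of at least 1 FPKM, list genes past 2-fold where a member's result is set beside them, and the neighbours of CDKN2A, CDKN2B and CDKN1C; TUSC1, MIR31HG and MYC were named after their values were seen.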

Additional observations from a re-analysis of the deposited data

How the results depend on the processing

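Of 92 member differences between 2 libraries, 10 were past 2-fold, 6 of them under every alternative, and none of the 10 changed sign; 11 of the 92 did, all of them under 2-fold. The SK-hep1 count of 9 became 5 with a pseudocount of 5 and 20 at a 1.5-fold threshold, and the Mahlavu count of 1 became 2 with TMM-scaled CPM (CCND3 in PSPC1-CT131 against mock, 1.07) and 9 at 1.5-fold. With a pseudocount of 5 the CDKN1C calls other than that in PSPC1-Y523F against PSPC1 were lost (-0.89, 0.79 and -0.77), and CCND1 in that comparison came to just under 2-fold. Between SK-hep1 and Mahlavu 5 members were called, 4 to 5 when each library was left out in turn, 5 by DESeq2 and 6 with no filterByExpr, the sixth being CCND2. With an additive fit over the 4 SK-hep1 construct libraries 0 members were called for the mutant and 0 for PTK6, against 2 and 1 with upper-quartile factors. Of all 14023 genes, 0 and 48 were called, against 470 and 510 with those factors. No paired analysis was possible because each group has 1 library and so 1 replicate number; the additive fit sets constructs, not paired cultures, side by side. Depth limits CCND2, and CDKN2A and CDKN2B in SK-hep1. The additive fit and the gene lists under other scalings were added after seeing the data.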
